A study of Mus musculus with 25 samples.

Results

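The 10 genes followed here move, store or sense iron, and their transcripts were measured in mouse white adipose tissue: *Slc40a1* and *Cp* (export), *Trf*, *Tfrc*, *Slc11a2* and *Slc11a1* (import), *Fth1* and *Ftl1* (storage), and *Hfe* and *Ireb2* (regulation). They were taken by name as 10 of the 54752 gene rows of the count files, after Ensembl identifiers had been joined to mouse gene symbols. Each symbol matched 1 row, and all 10 genes passed the filter on low counts (1 CPM, a read count scaled to the library's total, on average over the libraries compared) in every comparison. RNA was sequenced from 25 libraries, 14 of epididymal (eWAT) and 11 of inguinal (iWAT) fat, from male C57BL/6N mice (written C57BL/6NJ in the treatment label). In each depot there were wild-type mice on normal chow (WT ND, n = 4 in eWAT and n = 3 in iWAT), wild-type mice on a high-fat diet (WT HFD, n = 5 and n = 5) and *Acod1*-/- mice on the same diet (*Acod1*-/- HFD, n = 5 and n = 3). No *Acod1*-/- mouse on chow was among them. The diet drew 60% of its calories from fat and began at 5 weeks of age. The treatment text gives 16 weeks for all mice, as do the time labels, except those of *Acod1*-/- iWAT libraries 2 and 3, which read 17 and 18 weeks. *Acod1*, the enzyme that makes itaconate, is deleted in every tissue of the knockout line. The comparisons ask what the diet changed in wild-type fat, and what the loss of *Acod1* changed in mice on that diet.

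*Acod1* itself could not be used to check the labels, since no library held more than 9 of its reads. The highest count was 2, 9 and 2 in eWAT and 7, 9 and 2 in iWAT, in the order WT ND, WT HFD and *Acod1*-/- HFD. Each library had between 31.41 M and 52.34 M reads counted on genes (M, 1e6 reads). Each column header carries a number, and these numbers fall into 2 separate ranges. The ranges were taken here as 2 sequencing series, series 2 being the higher, an inference from the numbers alone. Series 2 held every ND library and 1 library of each HFD group, so that diet and series nearly coincide and cannot be fully told apart. The fat was not free of other tissue. Epididymis markers summed to 7646 CPM in eWAT WT ND library 2 and 1051 CPM in eWAT *Acod1*-/- library 5, against 0.137 to 218 CPM in the other eWAT libraries. Skeletal muscle markers summed to 7095 CPM in iWAT WT ND library 1, against 5.48 to 432 CPM in the other iWAT libraries. Skin and mammary epithelium markers summed to 529 CPM in iWAT *Acod1*-/- library 2, against 0.733 to 52.15 CPM in the other iWAT libraries. The fits below without the libraries rich in epididymis or muscle markers kept that library. Lymphocyte markers summed to 478 to 702 CPM in the 3 iWAT WT ND libraries and to at most 61.5 CPM in any other library. Adipocyte markers were abundant in all 25 libraries, with a lowest sum of 19801 CPM.

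Cells take up iron bound to transferrin through the transferrin receptor, release it in the endosome and pass it to the cytosol through divalent metal transporters. Iron that is not used is stored inside a shell of ferritin, built from heavy chains, which oxidise iron, and light chains, which help it to mineralise. Ferroportin is the only known exporter of iron from cells, and ferroxidases such as ceruloplasmin load the exported iron onto transferrin. Iron regulatory proteins bind hairpins in messenger RNAs when iron is scarce, and so block translation where the hairpin lies in the 5′ UTR or protect the message where it lies in the 3′ UTR. Macrophages recycle iron from red cells, and in fat they are known to store more of it than most of their neighbours.

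Those hairpins, the iron-responsive elements, are shown here because they mark genes whose translation or message stability is known to follow iron. Control of translation is a layer that read counts of ferritin and ferroportin do not measure. A search of the GENCODE vM21 transcripts (GRCm38) for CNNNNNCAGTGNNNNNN on the sense strand, with the 5 bases on either side of the loop able to pair, found 7 sites in 4 of the 10 genes. Each is given with 12 bases before the loop, the 6 bases of the loop in capitals and 11 bases after it. The heavy and light ferritin chains and ferroportin held 1 site each in the 5′ UTR, at chr19:9982732-9982760 (plus strand), chr7:45459779-45459807 (minus strand) and chr1:45925465-45925493 (minus strand).
*Fth1*, 5′ UTR: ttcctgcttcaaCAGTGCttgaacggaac
*Ftl1*, 5′ UTR: gtcttgcttcaaCAGTGTttgaacggaac
*Slc40a1*, 5′ UTR: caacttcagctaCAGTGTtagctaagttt
The transferrin receptor held 4 sites in its 3′ UTR, all on the plus strand, at chr16:32631219-32631247, chr16:32631598-32631626, chr16:32631663-32631691 and chr16:32631710-32631738.
*Tfrc*, 3′ UTR, first site: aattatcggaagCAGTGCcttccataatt
*Tfrc*, 3′ UTR, next site: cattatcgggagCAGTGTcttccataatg
*Tfrc*, 3′ UTR, next site: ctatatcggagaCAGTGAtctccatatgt
*Tfrc*, 3′ UTR, last site: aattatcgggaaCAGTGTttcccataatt
Of all protein-coding genes, 0.148% held such a match in a 5′ UTR and 0.613% in a 3′ UTR. The other 6 genes, *Slc11a2* among them, had none in these transcripts, which says only that these letters were not found there. A hairpin whose stem does not pair at all 5 bases would be missed by this search, so the 10 genes are not divided by it.

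Compared per length, on the deposited FPKM scale (counts scaled to transcript length and library total), the level of the ferritin chains stood far above the rest. *Fth1* held rank 1 and *Ftl1* rank 2 among the 10 genes in all 25 libraries, with *Fth1* at 1758 to 3172 FPKM and *Ftl1* at 507 to 2988 FPKM. *Hfe* held rank 3 or 4 in every library, at 15.25 to 73.4 FPKM. *Trf* (7.22 to 34.0 FPKM) and *Cp* (7.29 to 25.5 FPKM) held ranks 3 to 6, and their group means changed places between diets. *Slc11a1* moved most among the ranks, between ranks 4 and 10 (1.37 to 29.8 FPKM). *Ireb2* (5.14 to 9.63 FPKM), *Tfrc* (2.65 to 13.6 FPKM), *Slc11a2* (2.59 to 6.70 FPKM) and *Slc40a1* (1.16 to 3.76 FPKM) stayed low. In eWAT WT ND, *Ireb2* (7.54 ± 0.38 FPKM) and *Tfrc* (6.95 ± 1.24 FPKM, SD, n = 4) lay within each other's spread, as did *Slc11a1* (4.97 ± 2.21 FPKM) and *Slc11a2* (4.63 ± 1.51 FPKM).

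**Figure D1:**
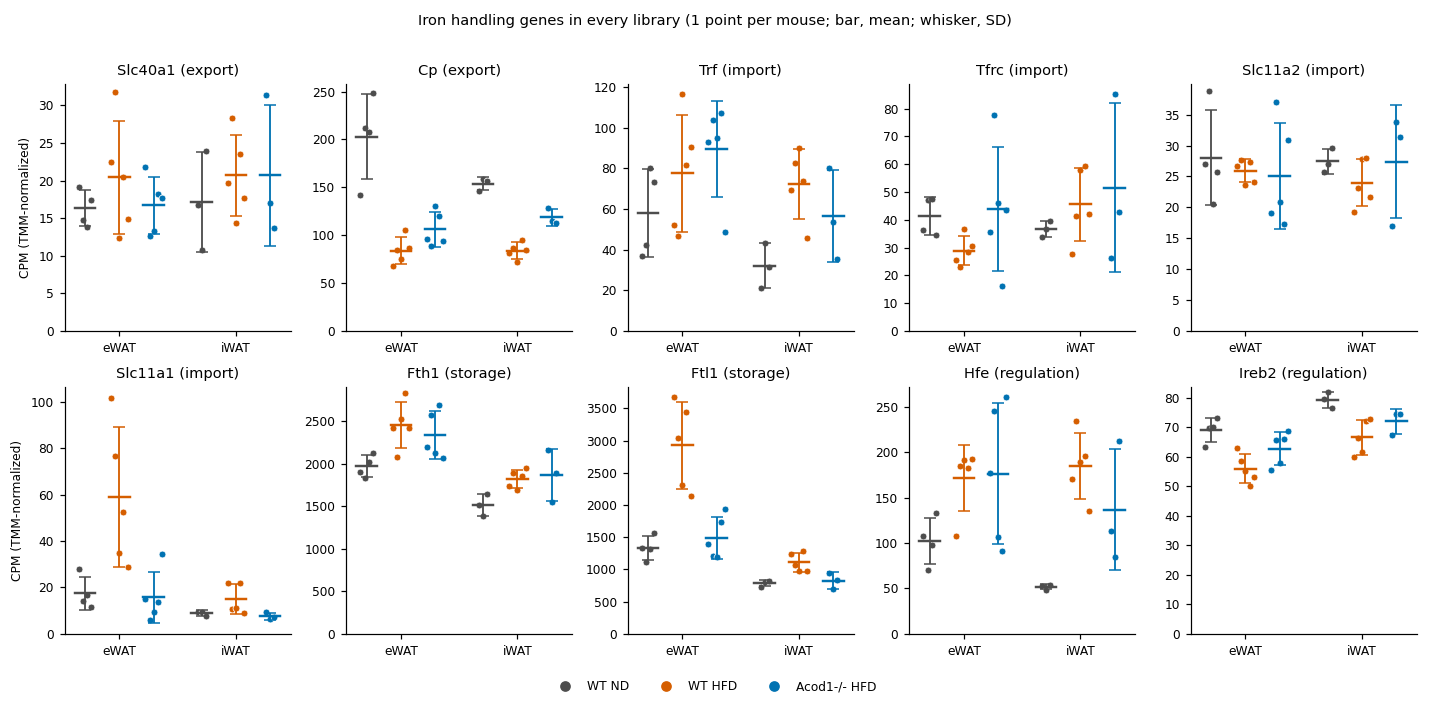
Each panel shows 1 of the 10 iron genes, with CPM after TMM normalization on the vertical axis (starting at 0) and depots on the horizontal axis; points are mice, bars are group means and whiskers are SD. Slc11a1 and Ftl1 stand out in eWAT WT HFD (29.0 to 101.5 CPM and 2144 to 3682 CPM), and Cp is lower in every WT HFD library than in any WT ND library of its depot.

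Between diets, 6 of the 10 genes were called in eWAT and 5 in iWAT at an adjusted p under 0.1 (edgeR's quasi-likelihood test, Benjamini-Hochberg over all genes tested). Ferritin light chain, *Slc11a1* and *Hfe* were higher on HFD in both depots and ceruloplasmin was lower in both, while *Fth1* (higher) and *Ireb2* (lower) were called in eWAT alone and *Trf* (higher) in iWAT alone. The diet called 51.8% of all 14936 genes tested in eWAT and 50.1% of all 14801 in iWAT, so the counts of 6 and 5 of 10 sit near the background. Between genotypes in eWAT, 2 of 10 were called, *Slc11a1* and *Ftl1*, both lower in *Acod1*-/- HFD mice, against 19.9% of all genes. Between genotypes in iWAT edgeR called 0 of 10 genes, against 0% of all genes. There 3 of 10 had an unadjusted p under 0.05, against 2468 of all 14801 genes. DESeq2's Wald test called 3 of 10, against 1072 of 14801. The medians of the 10 log2 fold changes were 0.32 and 0.32 by diet and -0.01 and -0.01 by genotype (eWAT, iWAT), where those of all genes were -0.04 and 0.00 by diet and 0.04 and -0.01 by genotype. Every library of a group lay above every library of the other for 2 of the 10 genes by diet in eWAT and below it for 2 (17.3% and 17.9% of all genes), and for 4 and 2 by diet in iWAT (23.1% and 24%). By genotype the groups did not overlap for 0 genes higher and 1 lower in eWAT (2.79% and 4.37% of all genes), and for 1 and 1 in iWAT (3.66% and 4.6%). With the 3 libraries rich in epididymis or muscle markers left out, 4 of the 10 genes were called by diet in eWAT (6887 of all 14729) and 2 by genotype (4258 of 14729). In iWAT that left 4 by diet (6496 of all 14669) and 0 by genotype (0 of 14669). All 3 iWAT WT ND libraries hold the lymphocyte markers given above, and 2 of them stayed in that fit. The diet calls in iWAT were thus not tested free of other tissue.

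**Figure D2:**
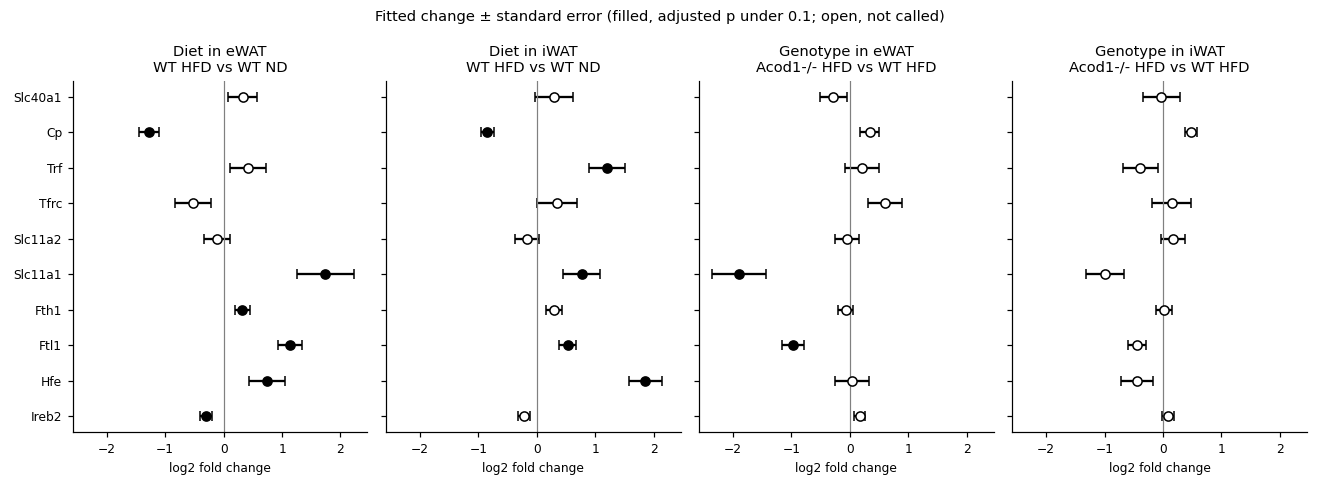
Fitted log2 fold change (horizontal axis) with its standard error for each of the 10 genes (vertical axis) in the 4 comparisons within depots; filled points have an adjusted p under 0.1. By diet 6 points are filled in eWAT and 5 in iWAT, by genotype 2 in eWAT and 0 in iWAT.

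Ceruloplasmin, the secreted copper ferroxidase, was the export gene that changed. *Cp* (ENSMUSG00000003617, chromosome 3, 19957054 to 20009145 in GRCm38) measured 142, 212, 208 and 249 CPM in the eWAT WT ND libraries 1 to 4. It measured 67.8, 84.0, 75.25, 105.3 and 86.1 CPM in eWAT WT HFD and 96.4, 88.9, 131, 120 and 94.0 CPM in eWAT *Acod1*-/- HFD. All HFD libraries of either genotype thus lay below all ND libraries in eWAT. In iWAT, *Cp* measured 146, 158 and 157 CPM in WT ND, then 80.9, 86.6, 71.5, 95.4 and 84.6 CPM in WT HFD and 129, 114 and 113 CPM in *Acod1*-/- HFD. The 3 iWAT groups did not overlap, with the knockouts between the 2 wild-type groups. By diet, *Cp* fell by 1.27 on the log2 scale in eWAT (standard error 0.17, adjusted p = 0.000319 by edgeR) and by 0.84 in iWAT (standard error 0.10, adjusted p = 0.000217). When any 1 library was omitted, these values stayed between -1.43 and -1.17 and between -0.91 and -0.81. The *Cp* fall was also called within series 2 alone, where the HFD group is 1 library whose spread is assumed to be that of the others (-1.22 in eWAT, adjusted p = 0.0979, and -0.79 in iWAT, adjusted p = 0.0642). By genotype, the log2 difference of *Cp* was 0.34 in eWAT (standard error 0.16, adjusted p = 0.186) and 0.48 in iWAT (standard error 0.11, adjusted p = 0.137), neither of them called. The iWAT difference in *Cp* was called without *Acod1*-/- library 3 (adjusted p = 0.0253), without both knockouts whose time labels exceed 16 weeks (0.0581), within series 1 (0.0623), with a minimum of 1 CPM in every library (0.0936) and by DESeq2's Wald test (0.00135). Exons of *Cp* share bases with *Hps3* on the other strand, whose counts were 8.47% to 47.4% of those of *Cp*, and whether the counting used strand is not given in the sources used here. *Hps3* itself measured 33.3 to 51.3 CPM in iWAT WT ND and 19.05 to 26.7 CPM in iWAT WT HFD, lower on HFD as *Cp* was. In eWAT its WT ND and WT HFD libraries overlapped (21.05 to 27.0 and 19.99 to 32.1 CPM). The part of *Hps3* reads in the *Cp* values was not tested.

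Ferroportin, the exporter itself, was the lowest of the 10 genes per length in most groups. *Slc40a1* (ENSMUSG00000025993, chromosome 1, 45908068 to 45926523) ranged from 12.3 to 31.75 CPM over the eWAT libraries and from 10.8 to 31.4 CPM over the iWAT libraries, with all 6 groups overlapping. Its log2 differences by diet were 0.32 in eWAT (standard error 0.25, adjusted p = 0.301) and 0.30 in iWAT (standard error 0.32, adjusted p = 0.483). By genotype they were -0.29 (standard error 0.23, adjusted p = 0.443) and -0.03 (standard error 0.32, adjusted p = 0.981). Omitting 1 library at a time moved the diet value of *Slc40a1* between 0.10 and 0.46 in eWAT and between 0.04 and 0.59 in iWAT, so its level is not shown to be the same on both diets.

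Among the import genes, transferrin, the plasma iron carrier that fat also transcribes, was higher on HFD in iWAT. *Trf* (ENSMUSG00000032554, chromosome 9, 103204001 to 103230444) measured 21.2, 43.4 and 31.4 CPM in iWAT WT ND, 69.2, 82.8, 90.2, 73.7 and 45.5 CPM in iWAT WT HFD, and 80.2, 53.7 and 35.3 CPM in iWAT *Acod1*-/- HFD. The 2 wild-type groups did not overlap, though ND library 2 and HFD library 5 lay close together. Its log2 fold change by diet in iWAT was 1.201 (standard error 0.30, adjusted p = 0.0091), and it kept between 0.97 and 1.47 when any single library was omitted. Adding the series to the fit gave 0.52 (adjusted p = 0.188), and series 2 on its own gave 0.58 (adjusted p = 0.366). In eWAT the groups of *Trf* overlapped, at 36.9 to 80.1 CPM in WT ND, 46.9 to 117 CPM in WT HFD and 48.8 to 107 CPM in *Acod1*-/- HFD, and neither diet (0.42, standard error 0.31, adjusted p = 0.294) nor genotype (0.21, standard error 0.29, adjusted p = 0.678) was called. In iWAT the genotype difference was -0.39 (standard error 0.29, adjusted p = 0.538).

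The transferrin receptor and the endosomal transporter of divalent metals were not called in any comparison. *Tfrc* (ENSMUSG00000022797, chromosome 16, 32608920 to 32632794) measured 34.7 to 47.6 CPM in eWAT WT ND, 23.0 to 36.7 CPM in eWAT WT HFD and 16.3 to 77.8 CPM in eWAT *Acod1*-/- HFD. The knockouts spanned the whole range of the other 2 groups. Its log2 differences in eWAT were -0.52 by diet (standard error 0.31, adjusted p = 0.181) and 0.60 by genotype (standard error 0.29, adjusted p = 0.189). Both were called without eWAT *Acod1*-/- library 4, the lowest at 16.3 CPM (adjusted p = 0.0627 and 0.0450), and the diet difference in a fit of the 2 wild-type groups alone (-0.53, adjusted p = 0.0230). In iWAT, *Tfrc* measured 33.9 to 39.5 CPM in WT ND, 27.8 to 59.5 CPM in WT HFD and 26.4 to 85.3 CPM in *Acod1*-/- HFD (adjusted p = 0.433 by diet and 0.871 by genotype). *Slc11a2* (ENSMUSG00000023030, chromosome 15, 100387898 to 100425072), also known as DMT1, ranged from 17.0 to 38.8 CPM over all 25 libraries, and its 4 log2 differences within depots lay between -0.17 and 0.17.

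*Slc11a1*, which pumps divalent metals out of the phagosome of macrophages, had the largest change by genotype of the 10 genes in eWAT. *Slc11a1* (ENSMUSG00000026177, chromosome 1, 74375195 to 74386062) measured 27.8, 14.3, 16.6 and 11.7 CPM in eWAT WT ND. It measured 101.5, 76.6, 34.7, 52.7 and 29.0 CPM in eWAT WT HFD, and 14.99, 6.09, 9.62, 13.7 and 34.45 CPM in eWAT *Acod1*-/- HFD. Every WT HFD library lay above every WT ND library, and above every knockout library but number 5. By diet the log2 fold change was 1.74 (standard error 0.49, adjusted p = 0.0123), and by genotype *Slc11a1* fell by 1.90 (standard error 0.45, adjusted p = 0.0199). Omitting any single library gave diet values of 1.46 to 2.04 and genotype values of -2.42 to -1.63, all called. Within series 1, which leaves out knockout library 5, the genotype value was -2.57 (adjusted p = 0.00263), and within series 2, with 1 HFD library, the diet value was 0.74 (adjusted p = 0.340). In iWAT, *Slc11a1* measured 9.60, 9.64 and 7.56 CPM in WT ND, then 21.96, 10.6, 11.2, 21.9 and 9.01 CPM in WT HFD and 9.42, 6.38 and 7.11 CPM in *Acod1*-/- HFD. Libraries 1 and 4 of WT HFD were high and the other 3 near the ND level. The iWAT diet difference of *Slc11a1* was 0.77 (standard error 0.32, adjusted p = 0.0713), and it was not called without ND library 1, 2 or 3 (adjusted p = 0.122, 0.136 and 0.213), without WT HFD library 1 or 4 (0.144 and 0.165), within series 2 (0.08, adjusted p = 0.870), or once the series entered the fit (0.36, adjusted p = 0.532). The first of those ND libraries is the one rich in muscle markers. The iWAT genotype difference was -0.99 (standard error 0.32, adjusted p = 0.173) and was called by DESeq2's Wald test alone (adjusted p = 0.0622).

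The ferritin light chain moved with diet in both depots and with genotype in eWAT. *Ftl1* (ENSMUSG00000050708, chromosome 7, 45457944 to 45459884) measured 1332, 1116, 1317 and 1566 CPM in eWAT WT ND. It measured 3682, 3037, 2318, 3447 and 2144 CPM in eWAT WT HFD, and 1401, 1214, 1200, 1731 and 1935 CPM in eWAT *Acod1*-/- HFD. The WT HFD libraries lay above all others in this depot, and the knockouts overlapped WT ND. The mean went from 1333 ± 184 CPM (SD, n = 4) to 2926 ± 678 CPM (SD, n = 5) with diet, and stood at 1496 ± 326 CPM (SD, n = 5) in the knockouts. On the log2 scale this was 1.13 by diet (standard error 0.20, adjusted p = 0.00119), and by genotype *Ftl1* fell by 0.97 (standard error 0.19, adjusted p = 0.0118). Neither call was lost when any 1 library was left out (1.03 to 1.23 and -1.09 to -0.88). Within series 1 the genotype value was -1.18 (adjusted p = 0.00534), and within series 2 the diet value was 0.70 (adjusted p = 0.151). In iWAT, *Ftl1* measured 733, 804 and 817 CPM in WT ND, 1246, 1074, 970, 1292 and 972 CPM in WT HFD, and 949, 692 and 844 CPM in *Acod1*-/- HFD, with WT HFD above both other groups. The iWAT log2 difference was 0.53 by diet (standard error 0.15, adjusted p = 0.0149) and -0.44 by genotype (standard error 0.15, adjusted p = 0.181). Once the series entered the fit the iWAT diet value was 0.48 (adjusted p = 0.1002), within series 2 it was 0.38 (adjusted p = 0.323), and DESeq2's Wald test called the iWAT genotype value (-0.42, adjusted p = 0.0603).

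The heavy chain, the more abundant of the pair, moved less. *Fth1* (ENSMUSG00000024661, chromosome 19, 9980598 to 9985098) measured 1899, 1837, 2022 and 2130 CPM in eWAT WT ND, and 2417, 2080, 2530, 2831 and 2423 CPM in eWAT WT HFD, so that only WT HFD library 2 fell within the ND range. The knockouts in eWAT ranged from 2070 to 2692 CPM. *Fth1* was 0.32 higher by diet on the log2 scale in eWAT (standard error 0.13, adjusted p = 0.0634), and its genotype difference was -0.07 (standard error 0.12, adjusted p = 0.731). The diet call for *Fth1* was lost without WT ND library 1, 2 or 3 (adjusted p = 0.141, 0.140 and 0.102), without WT HFD library 3 or 4 (0.106 and 0.140), without the libraries rich in epididymis markers (0.133), without the filter on low counts (0.189), once the series entered the fit (0.22, adjusted p = 0.380) and within series 2 (0.31, adjusted p = 0.405). In iWAT, *Fth1* measured 1512, 1391 and 1650 CPM in WT ND and 1745, 1888, 1689, 1854 and 1948 CPM in WT HFD, groups that did not overlap, but the difference of 0.29 (standard error 0.14) had an adjusted p of 0.107. It was called without iWAT *Acod1*-/- library 1, 2 or 3 (adjusted p = 0.0843, 0.0807 and 0.0955), in a fit of the 2 wild-type groups alone (0.0613) and by DESeq2's Wald test (0.0575). The knockouts in iWAT measured 2168, 1550 and 1889 CPM, and the genotype difference was 0.01 (standard error 0.14, adjusted p = 0.981).

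Because the light chain moved more than the heavy chain, the ratio of their FPKM differed between groups (a description chosen after the values were seen, with no test). *Ftl1* over *Fth1* was 0.436 ± 0.036 (SD, n = 4) in eWAT WT ND, 0.776 ± 0.192 (SD, n = 5) in eWAT WT HFD and 0.420 ± 0.112 (SD, n = 5) in eWAT *Acod1*-/- HFD. The highest single ratio was 0.984, in WT HFD library 1, where the 2 chains were nearly level. In iWAT the ratio was 0.336 ± 0.033 (SD, n = 3), 0.395 ± 0.059 (SD, n = 5) and 0.287 ± 0.003 (SD, n = 3) in the same order. The 2 deposited FPKM columns differ only in the total they divide by, which cancels in this ratio. Reads of the ferritin genes can also fall on processed copies. The 3 light-chain pseudogene rows held 0.414% to 0.8004% of the counts of *Ftl1*, and the 2 heavy-chain rows 0.00795% to 0.0876% of those of *Fth1*. *Ftl1-ps1*, with 114 to 774 counts, changed by 1.13 by diet (adjusted p = 0.00470) and by -1.02 by genotype (adjusted p = 0.0201) in eWAT, and whether its reads belong to *Ftl1* cannot be told apart.

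**Figure D3:**
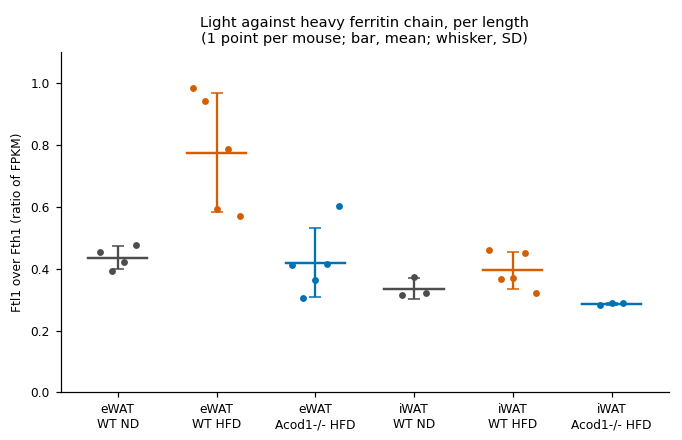
Ratio of the FPKM of Ftl1 to that of Fth1 (vertical axis, starting at 0) in the 6 groups (horizontal axis); points are mice, bars are means and whiskers SD. The eWAT WT HFD libraries run from 0.572 to 0.984, above every other library except eWAT Acod1-/- library 5 at 0.604.

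Macrophage markers moved with *Slc11a1* and *Ftl1*. Of 12 macrophage markers (*Adgre1*, *Cd68*, *Csf1r* and 9 others), 12 of 12 were higher by diet and 11 of 12 lower by genotype in eWAT, with *Marco* not called by genotype. The share of all genes called in either direction was 51.8% by diet and 19.9% by genotype in eWAT, and 50.1% and 0% in iWAT. The summed level of the 12 markers was 552 to 1033 CPM in eWAT WT ND, 1795 to 5987 CPM in WT HFD and 497 to 1790 CPM in *Acod1*-/- HFD. The knockout with the highest sum was library 5, which also had the highest *Slc11a1* and *Ftl1* of its group. In iWAT the sum was 651 to 838 CPM in WT ND, 633 to 1590 CPM in WT HFD and 425 to 560 CPM in *Acod1*-/- HFD, with 8 of 12 markers higher and 1 lower (*Marco*) by diet and 0 of 12 called by genotype. WT HFD libraries 1 and 4, with the 2 highest sums in iWAT (1366 and 1590 CPM), also had the 2 highest levels of *Slc11a1* and *Ftl1* there. No macrophage marker was at 0 in any group. In bulk tissue a change in the number of cells of a type and a change in the RNA of each such cell cannot be told apart, and the part of macrophages in these results was not tested.

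**Figure D4:**
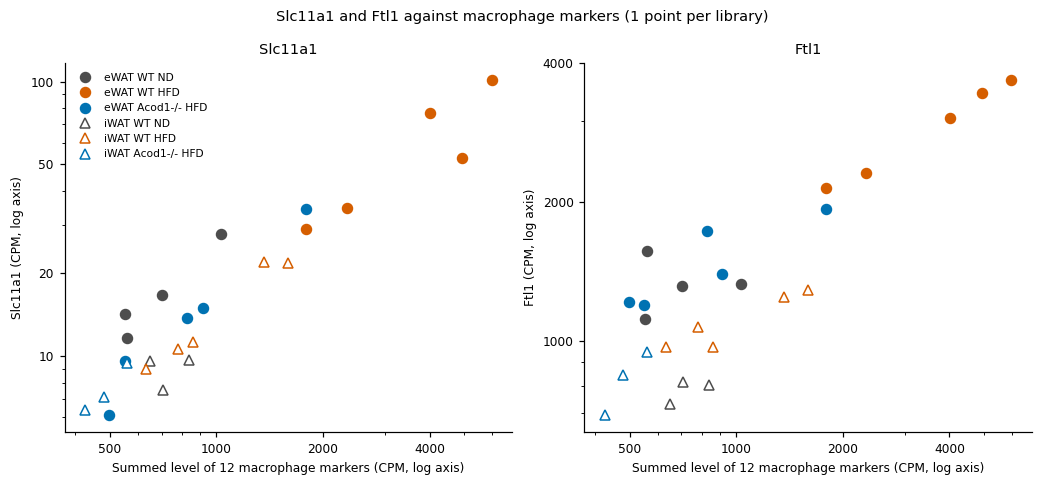
Level of Slc11a1 (left) and Ftl1 (right) in CPM on a log axis against the summed CPM of 12 macrophage markers on a log axis, 1 point per library; filled circles are eWAT, open triangles iWAT, and colours mark WT ND, WT HFD and Acod1-/- HFD. The eWAT WT HFD libraries, with marker sums of 1795 to 5987 CPM, lie at the upper right in both panels, and at like marker sums Ftl1 is lower in iWAT than in eWAT.

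Among the regulators, *Hfe*, an MHC class I-like protein that binds the transferrin receptor, was higher on HFD in both depots. *Hfe* (ENSMUSG00000006611, chromosome 13, 23702034 to 23710854) measured 52.8, 48.9 and 53.9 CPM in iWAT WT ND and 170, 234, 190, 196 and 135 CPM in iWAT WT HFD. The lowest HFD library was thus far above the highest ND library. The iWAT *Acod1*-/- libraries measured 113, 84.8 and 212 CPM and spread over the range in between and above. The iWAT log2 fold change of *Hfe* by diet was 1.86 (standard error 0.29, adjusted p = 0.00065), and it was called in each fit without 1 library (1.75 to 1.95), within series 2 (1.45, adjusted p = 0.0228, again with 1 HFD library and the spread of the other groups) and once the series entered the fit (2.17, adjusted p = 0.00324). By genotype it was -0.45 (standard error 0.27, adjusted p = 0.432), while without *Acod1*-/- library 3, the one at 212 CPM and with a time label of 18 weeks, *Hfe* was called lower at -0.90 (adjusted p = 0.0266), as it was within series 1 (-0.99, adjusted p = 0.0308). In eWAT, *Hfe* measured 108, 70.7, 98.1 and 133 CPM in WT ND, 107, 184, 192, 182 and 193 CPM in WT HFD, and 177, 246, 107, 90.9 and 261 CPM in *Acod1*-/- HFD. WT HFD library 1 lay within the ND range and the other 4 above it. The eWAT diet difference was 0.75 (standard error 0.31, adjusted p = 0.0620), and the genotype difference 0.04 (standard error 0.28, adjusted p = 0.950). The eWAT diet call for *Hfe* was lost without WT ND library 2 or 3 (adjusted p = 0.156 and 0.115), without WT HFD library 3, 4 or 5 (0.107, 0.103 and 0.104), without the epididymis-rich libraries (0.124) and within series 2 (0.93, adjusted p = 0.139).

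*Ireb2*, which encodes iron regulatory protein 2, moved little. *Ireb2* (ENSMUSG00000032293, chromosome 9, 54863789 to 54912530) measured 63.3, 69.7, 70.1 and 73.0 CPM in eWAT WT ND and 62.8, 58.7, 55.2, 50.2 and 53.0 CPM in eWAT WT HFD, just apart. It fell by 0.30 on the log2 scale (standard error 0.09, adjusted p = 0.0208), in every fit without 1 library (-0.36 to -0.26) but not once the series entered the fit (-0.27, adjusted p = 0.159) or within series 2 (-0.36, adjusted p = 0.169). The eWAT *Acod1*-/- libraries measured 55.6 to 68.6 CPM, and the genotype difference was 0.17 (standard error 0.09, adjusted p = 0.240). In iWAT, *Ireb2* measured 76.5 to 81.9 CPM in WT ND and 59.9 to 72.9 CPM in WT HFD, also apart, with a difference of -0.22 (standard error 0.10, adjusted p = 0.1005). That value stood at the threshold. It was called without WT ND library 3 (adjusted p = 0.0881), without WT HFD library 4 or 5 (0.0677 and 0.0771), without *Acod1*-/- library 1, 2 or 3 (0.0636, 0.0736 and 0.0624), with 1 CPM in every library (0.0467), with DESeq2's size factors (0.0667), by DESeq2's Wald test (0.0520) and in a fit of the wild-type groups alone (0.0498), and it was -0.09 (adjusted p = 0.609) once the series entered the fit. The iWAT genotype difference of *Ireb2* was 0.09 (standard error 0.10, adjusted p = 0.709).

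The depots were compared in 1 fit of all 25 libraries over 15034 genes, taking eWAT minus iWAT, and the labels do not tie the depots of a mouse together. On ND, 5 of 10 iron genes were higher in eWAT, against 31.7% of all genes called in either direction: *Hfe* by 0.98 on the log2 scale (adjusted p = 0.0375), *Trf* by 0.86 (0.0876), *Ftl1* by 0.76 (0.00782), *Cp* by 0.40 (0.0872) and *Fth1* by 0.38 (0.0419). Both ND groups hold libraries with other tissue described above. Without the 3 libraries rich in epididymis or muscle markers only *Ftl1* and *Hfe* were called on ND, against 4189 of all 14814 genes. That fit kept iWAT WT ND libraries 2 and 3 with their lymphocyte markers, so these depot calls were not tested free of other tissue. Single libraries also decided calls on ND. *Cp* was lost without eWAT WT ND library 2, 3 or 4 (adjusted p = 0.148, 0.128 and 0.235) or iWAT WT ND library 1, 2 or 3 (0.196, 0.170 and 0.159), *Trf* without eWAT WT ND library 3 or 4 (0.206 and 0.175) or iWAT WT ND library 1 or 3 (0.276 and 0.184), and *Fth1* and *Hfe* without iWAT WT ND library 2 (0.185 and 0.127). *Slc11a1*, at 0.98 with an adjusted p of 0.155 on ND, was called without eWAT *Acod1*-/- library 5 (0.0913).

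In WT HFD mice, 4 of 10 iron genes differed between depots, against 18.6% of all genes. *Slc11a1* was 1.98 higher in eWAT (standard error 0.41, adjusted p = 0.00331), *Ftl1* 1.40 higher (standard error 0.17, adjusted p = 2.28e-05) and *Fth1* 0.43 higher (standard error 0.11, adjusted p = 0.0127), while *Ireb2* was 0.25 lower (standard error 0.08, adjusted p = 0.0441). The *Ireb2* difference was lost without eWAT WT HFD library 3, 4 or 5 (adjusted p = 0.121, 0.192 and 0.140) or iWAT WT HFD library 2, 4 or 5 (0.1195, 0.157 and 0.117) within series 1 (0.325) and without the filter on low counts (0.147), and the other 3 held in each of those fits. Of the 12 macrophage markers, 11 were higher in eWAT than in iWAT in WT HFD mice. On ND 3 of the 12 markers were higher and 1 lower, and in *Acod1*-/- HFD mice 0 of 12 were called. The shares of all genes called in either direction were 18.6%, 31.7% and 3.81% in the same order. In *Acod1*-/- HFD mice, 1 of 10 differed, against 3.81% of all genes, *Ftl1* at 0.85 (standard error 0.19, adjusted p = 0.0211), which was lost without iWAT *Acod1*-/- library 2 (0.167), within series 1 (0.1205) and without both knockouts whose time labels exceed 16 weeks (0.338).

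The response to diet itself differed between depots for 2 of 10 iron genes, against 29% of all genes. *Ftl1* rose by 0.63 more in eWAT than in iWAT (interaction, standard error 0.25, adjusted p = 0.0791) and *Hfe* by 1.09 less (-1.09, standard error 0.43, adjusted p = 0.0754). Both stand close to the threshold of 0.1. The *Ftl1* interaction was lost without eWAT WT ND library 1, 2 or 3 (adjusted p = 0.110, 0.148 and 0.107), eWAT WT HFD library 1, 2 or 4 (0.142, 0.104 and 0.122), iWAT WT ND library 2 or 3 (0.152 and 0.141) or iWAT WT HFD library 2, 3 or 5 (0.106, 0.1197 and 0.122). The *Hfe* interaction was lost without eWAT WT ND library 1 or 4 (adjusted p = 0.108 and 0.153), eWAT WT HFD library 1 (0.126), iWAT WT ND library 1, 2 or 3 (0.112, 0.161 and 0.118) or iWAT WT HFD library 2, 3 or 4 (0.128, 0.103 and 0.101), and an interaction of *Cp* was called without eWAT WT ND library 1 (0.0580). For the response to genotype, edgeR called 0 of 10 interactions, against 0.00665% of all genes. With edgeR 1 of 10 had an unadjusted p under 0.05 (*Ftl1*, -0.54, adjusted p = 0.464), against 1524 of all 15034 genes. DESeq2 called 0 of 10, against 96 of 15034. The fall of *Slc11a1* and *Ftl1* by genotype in eWAT is therefore not shown to differ from iWAT, where the interaction of *Slc11a1* was -0.93 (standard error 0.60, adjusted p = 0.621).

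Another 59 iron genes from 7 lists were counted beside these 10, of which 53 passed the filter in each depot. By diet in eWAT 16 were higher and 19 lower, by genotype in eWAT 9 were higher and 8 lower, by diet in iWAT 24 were higher and 8 lower, and by genotype in iWAT 0 of 53 were called. In the same order, 51.8%, 19.9%, 50.1% and 0% of all genes were called in either direction, which is the background for each list that follows. Of the genes of haem breakdown and transport, 8 of 10 were higher and 1 lower (*Flvcr2*) by diet in eWAT (median log2 fold change 0.92, against -0.04 for all genes), and 7 of 9 were higher and 1 lower (*Flvcr1*) in iWAT (median 0.72, against 0.00), where the diet called 51.8% and 50.1% of all genes in either direction. By genotype in eWAT, 6 of the 10 were lower and 1 higher (median -0.51, against 0.04). *Hmox1*, the inducible haem oxygenase, rose by 2.13 on HFD (standard error 0.34, adjusted p = 0.000642) and fell by 1.49 in the knockouts (standard error 0.30, adjusted p = 0.0129) in eWAT. *Hpx*, the haem-binding plasma protein hemopexin, rose by 4.95 in eWAT (adjusted p = 0.00261) and 6.18 in iWAT (adjusted p = 0.000222) from group means under 0.5 CPM. These ND means lay under the filter of 1 CPM, which *Hpx* passed through the HFD libraries. That fixed its direction by diet in advance, and *Hpx* is 1 of the higher genes counted in each depot. *Hp*, haptoglobin, rose by 1.84 in eWAT (adjusted p = 0.000823) and 1.97 in iWAT (adjusted p = 0.000728), and fell by 1.05 by genotype in eWAT (adjusted p = 0.0292). *Flvcr2*, of a family of haem and choline transporters, fell by 1.504 by diet (adjusted p = 0.0244) and rose by 1.67 by genotype (adjusted p = 0.0370) in eWAT. Its WT HFD mean of 0.79 CPM lay under the filter of 1 CPM. It passed through WT ND (2.24 CPM) and *Acod1*-/- HFD (2.51 CPM), so the filter favoured both directions. These genes include several that macrophages or adipocytes are known to express. In eWAT the macrophage marker sums given above were higher on HFD and lower in the knockouts, as were most of these genes. *Flvcr2* went the other way. The median adipocyte marker sum in eWAT was 39650 CPM in WT ND, 32150 CPM in WT HFD and 48110 CPM in *Acod1*-/- HFD. In iWAT the macrophage marker sums of WT ND and WT HFD overlapped. The part of these cell types was not tested.

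In the list of uptake and reduction, 2 of 13 genes tested in eWAT were higher and 5 lower by diet, and in iWAT 5 of 12 were higher and 0 lower. By genotype in eWAT 1 was higher and 2 lower. *Tfr2*, the second transferrin receptor, was low on ND at 1.70 ± 0.70 CPM (SD, n = 4) in eWAT and 3.78 ± 2.22 CPM (SD, n = 3) in iWAT, and rose by 3.59 (adjusted p = 0.00908) and 2.98 (adjusted p = 0.00322) on HFD. *Steap3*, the ferrireductase of the transferrin endosome, rose by 1.80 in eWAT (adjusted p = 0.000114) and 1.85 in iWAT (adjusted p = 0.000143), and fell by 0.73 by genotype in eWAT (adjusted p = 0.0166). *Steap2*, of the same family, fell by 2.05 on HFD in eWAT (adjusted p = 0.000573) and rose by 1.25 by genotype (adjusted p = 0.0197), and *Lrp1*, a receptor that also takes up haem bound to hemopexin, fell by 0.84 by genotype (adjusted p = 0.04996).

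Of the 2 other ferroxidases, *Hephl1* rose by 2.90 on HFD in eWAT (adjusted p = 0.00256) and by 2.85 in iWAT (adjusted p = 0.0251), from means of 0.85 and 1.24 CPM. The eWAT ND mean lay under the filter of 1 CPM, which *Hephl1* passed there through the HFD libraries. *Heph*, hephaestin, fell by 0.36 in eWAT (adjusted p = 0.0575) and rose by 0.61 in iWAT (adjusted p = 0.0170). Neither was called by genotype. In the list of storage and ferritin turnover, *Ncoa4*, the receptor that delivers ferritin to the lysosome, fell by 1.15 in eWAT (adjusted p = 0.00144) and by 0.88 in iWAT (adjusted p = 0.0417), and *Pcbp1*, an iron chaperone that loads ferritin, rose by 0.48 in eWAT (adjusted p = 0.0126). *Pcbp2* was not called in either depot, and *Ftmt*, mitochondrial ferritin, did not pass the filter on low counts.

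In the list of iron sensing and the hepcidin axis, all 5 genes tested in eWAT were called by diet, 2 higher and 3 lower, and in iWAT 5 of 7 were higher and 1 lower. The lower gene was *Hjv*, hemojuvelin, at 46.5, 0 and 1.84 CPM in iWAT WT ND and 1.11 to 2.50 CPM in iWAT WT HFD, so that only ND library 1, the one rich in muscle markers, lay above the HFD group. *Hamp*, the hormone hepcidin that blocks ferroportin, had no read in any of the 4 eWAT WT ND libraries and 4.31 ± 3.95 CPM (SD, n = 5) in eWAT WT HFD, at least 71.2-fold higher against a floor of 3 counts per library (adjusted p = 0.00359). *Hamp*, 1 of the 2 higher genes, thus passed the filter on low counts through the HFD libraries alone, which fixed its direction by diet in advance. In iWAT, *Hamp* was 0.294 ± 0.169 CPM (SD, n = 3) in WT ND, 9.98 ± 6.41 CPM (SD, n = 5) in WT HFD and 10.8 ± 5.53 CPM (SD, n = 3) in *Acod1*-/- HFD, a rise of 5.09 by diet (adjusted p = 0.000474). These levels are low, and at most 795 reads per library fell on *Hamp*. The median of this list by diet in eWAT was -0.56, also with *Hamp* at its bound. *Bmp6*, an inducer of hepcidin in the liver, fell by 1.21 in eWAT (adjusted p = 0.00378) and rose by 0.41 in iWAT (adjusted p = 0.0811), and *Tmprss6*, a protease of that pathway, rose by 4.32 in iWAT (adjusted p = 0.0146) from 0.187 ± 0.324 CPM (SD, n = 3). The iWAT ND means of *Tmprss6* and *Hamp* lay under the filter of 1 CPM, which both passed through the HFD libraries. The direction by diet of these 2 of the 5 higher genes in iWAT was thus also fixed in advance. By genotype in eWAT, 2 of 5 were higher, *Aco1*, which encodes iron regulatory protein 1, by 0.62 (adjusted p = 0.0317) and *Neo1*, neogenin, by 0.32 (adjusted p = 0.0801).

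Of 12 genes of mitochondrial iron and iron-sulphur clusters, 2 were higher and 4 lower by diet in eWAT, 3 higher and 2 lower by diet in iWAT, and 3 higher by genotype in eWAT. *Fdx1*, a ferredoxin, fell by 0.58 on HFD (adjusted p = 0.0274) and rose by 0.65 by genotype (adjusted p = 0.0376) in eWAT, *Isca1* fell by 0.43 on HFD (adjusted p = 0.00857) and *Nfs1*, the cysteine desulphurase, rose by 0.42 by genotype (adjusted p = 0.0528). In iWAT, *Slc25a37*, a mitochondrial iron importer, fell by 1.12 (adjusted p = 0.00115) and *Glrx5* rose by 0.83 (adjusted p = 0.00297). Of 8 genes of haem synthesis, 4 were lower by diet in eWAT, 2 were higher and 3 lower by diet in iWAT, and 2 were higher by genotype in eWAT. *Alad*, the enzyme of the second step, fell by 1.07 (adjusted p = 0.00841) and rose by 0.92 by genotype (adjusted p = 0.0384) in eWAT. *Ppox* fell in both depots, by 0.68 (adjusted p = 0.0145) and 0.63 (adjusted p = 0.00819), and *Alas1*, the rate-limiting enzyme outside red cells, rose by 0.55 by genotype in eWAT (adjusted p = 0.0709).

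**Figure D5:**
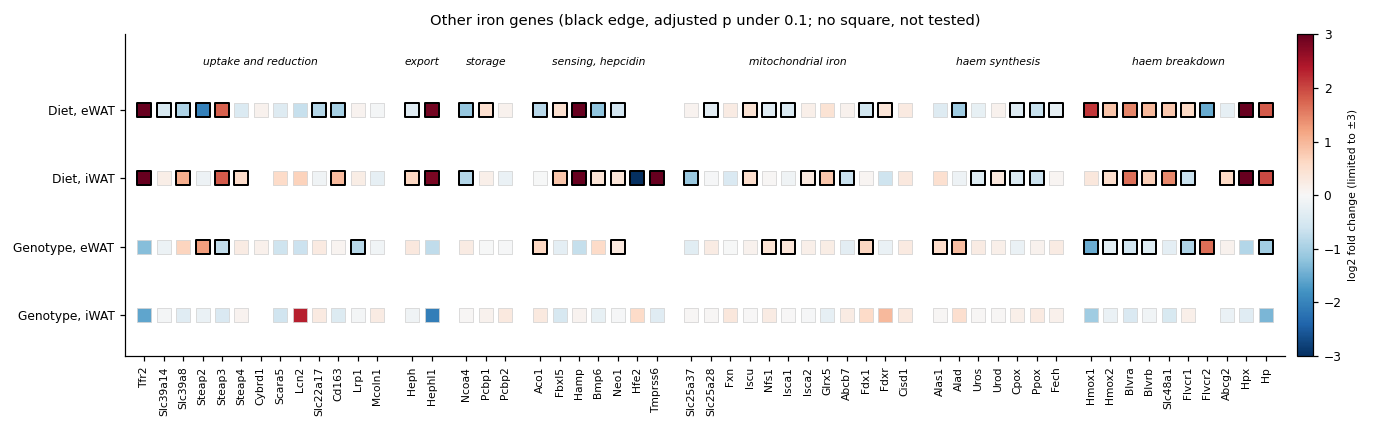
Fitted log2 fold change (colour, limited to ±3) of the other iron genes named or counted here, except 1 haem synthesis gene (horizontal axis, grouped by list) in the 4 comparisons within depots (vertical axis); a black edge marks an adjusted p under 0.1, a missing square a gene that did not pass the filter, and Hfe2 is the files' symbol for Hjv. The haem breakdown genes at the right are mostly higher by diet (8 of 10 in eWAT), and no square in the row of genotype in iWAT has a black edge.

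Haemoglobin and other red cell markers, the main carriers of iron in blood, were also counted. Of 6 tested in eWAT, 6 were lower by diet and 0 were called by genotype, and in iWAT 1 of 5 was lower by diet. Their summed level was 837 to 1989 CPM in eWAT WT ND and 274 to 781 CPM in eWAT WT HFD. Among the remaining lists in eWAT, adipocyte markers had 1 of 10 higher and 5 lower by diet and 6 higher by genotype, endothelial markers 4 of 6 lower by diet, fibroblast and progenitor markers 6 of 7 higher by diet and 5 lower by genotype, mesothelial markers 3 of 6 lower by diet, epididymis markers 2 of 5 lower by diet and 1 higher by genotype, lymphocyte markers 1 of 5 higher by diet and 1 lower by genotype, neutrophil markers 1 of 1 higher by diet, skin and mammary epithelium markers 4 of 5 lower by diet and skeletal muscle markers 1 of 4 higher by diet. In iWAT by diet, adipocyte markers had 4 of 10 higher and 2 lower, endothelial markers 6 of 6 higher, fibroblast and progenitor markers 6 of 7 higher, lymphocyte markers 6 of 6 lower, neutrophil markers 1 of 2 higher and 1 lower, skin and mammary epithelium markers 1 of 5 lower and skeletal muscle markers 5 of 5 lower, no mesothelial or epididymis marker passed the filter, and no marker was called by genotype. Beside these counts, the share of all genes called in either direction was 51.8% by diet and 19.9% by genotype in eWAT, and 50.1% and 0% in iWAT. Only 1 of 6 neutrophil markers passed the filter in eWAT, where all 6 summed to 1.51 to 3.97 CPM in WT ND. The muscle marker called higher had no read in any eWAT WT ND library. Likewise, 1 epithelium marker called lower had none in any eWAT WT HFD library. The filter fixed the direction by diet of these muscle and epithelium markers in advance. The part of these cell types in the results for the iron genes was not tested.

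For each iron gene, the 3 genes whose log2 CPM followed it most closely over the 25 libraries were taken from the 11416 genes averaging 5 CPM or more (Pearson's r, as a description; the points share groups, series and tissue makeup). *Slc11a1* followed *Csf1r* (r = 0.96), *Sdc3* (0.96) and *Tbxas1* (0.96), the first of them the receptor for the macrophage growth factor. *Ftl1* followed *Hexa* (r = 0.95), *Ftl1-ps1* (0.95) and *Fcgr3* (0.94). *Hfe* followed *Igfals* (r = 0.95), *Degs1* (0.95) and *Rnf11* (0.94), and these r values were 0.88, 0.87 and 0.88 after the group means were removed. *Cp* followed *Thap6* (r = 0.90), *Wdr33* (0.89) and *Rad21* (0.89), which fell to 0.40, 0.49 and 0.24 within groups. *Trf* followed *Sumf2* (r = 0.85), *Rtl8b* (0.84) and *Skp1a* (0.84), *Fth1* followed *Rrp7a* (0.86), *Samd4b* (0.85) and *Bicc1* (0.85), and *Ireb2* followed *Micall1* (0.79), *Atl2* (0.78) and *Pnpt1* (0.78). Within groups these r values were 0.77, 0.75 and 0.73 for *Trf*, 0.61, 0.80 and 0.38 for *Fth1*, and 0.28, 0.09 and 0.54 for *Ireb2*. *Slc11a2* followed *Chd4* (r = 0.77), *Xrcc3* (0.77) and *Leo1* (0.75). *Tfrc* followed *Srebf1* (r = 0.73), *Mmp15* (0.71) and *Atrn* (0.70). *Slc40a1* had the weakest closest partners, *Fst* (r = 0.56), *Itgbl1* (0.56) and *Phf11d* (0.55).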

How the data were processed

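RNA from snap-frozen fat was made into directional mRNA libraries. The authors trimmed adapters (cutadapt), dropped short and contaminant reads, and used STAR 2.4.2a to map what remained on GRCm38. They deposited counts of uniquely aligned reads per Ensembl gene, without normalization, and 2 columns of FPKM values that follow from those counts and a cDNA length. The counting program and its use of strand are not given in the sources used here, which limits overlapping genes.

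The 5 rows of reads on no gene (no feature 6.41% to 11.9% of reads, ambiguous 1.52% to 2.07%) were left out of all totals. Symbols came from GENCODE vM21 for 54723 of 54752 rows. Counts of genes averaging 1 CPM or more were tested with edgeR 4.0.16 (R 4.3.3, TMM, quasi-likelihood), with 3 groups per depot for diet and genotype and 6 groups over 25 libraries for depots and interactions. Benjamini-Hochberg adjustment covered every gene in a fit, and values under 0.1 were called, as in the study, which used DESeq2. CPM levels used TMM factors over all 25 libraries, and log2 CPM a prior count of 2. Positive values mean higher on HFD, in *Acod1*-/- mice or in eWAT. Nothing in the labels says that a mouse gave more than 1 library of a group, and no 2 libraries of a group were copies (lowest chi-square per degree of freedom 39.2). Precision is set by depth (31.41 M to 52.34 M reads) and by n, and the floor of 3 counts covers counting error only.

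The 10 genes and the lists of other iron genes and markers were chosen with earlier results of these data known. Named among the 59 other iron genes are the 2 called genes with the largest changes per list and comparison, and all genes of lists of 4 or fewer, except 1 haem synthesis gene, which is counted but not reported by name here; *Flvcr1*, *Hjv* and, among the markers, *Marco*, *Adgre1*, *Cd68* and *Csf1r* were named after their values were seen. The marker lists were macrophage, adipocyte, red blood cell, endothelial, fibroblast and progenitor, mesothelial, lymphocyte, neutrophil, epididymis, skin and mammary epithelium, and skeletal muscle genes. Alternatives were no filter, 1 CPM in every library, DESeq2 1.42.0 size factors or Wald test, an adjusted p under 0.05, a replicate block, the series as a term, only the groups compared, FPKM levels, and each library left out. Fits within a series, without 3 libraries rich in epididymis or muscle markers, and without the iWAT knockouts labelled 17 and 18 weeks were added after the data were seen. The scripts were tested on simulated counts. Python 3.11.15, pandas 2.3.3 and matplotlib 3.10.9 made the plots.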

Additional observations from a re-analysis of the deposited data

Results flagged for a closer look

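Of 40 sets of 4 or 5 libraries (10 genes in 4 groups), 2 held a library whose gap to its nearest neighbour was above Dixon's 95% critical value, and chance flags about 1 set in 20. *Trf* stood at 48.8 CPM in eWAT *Acod1*-/- library 5, below the other 4 at 93.2 to 107.3 CPM, and *Hfe* at 107.3 CPM in eWAT WT HFD library 1, below the other 4 at 182 to 193 CPM. The first of these libraries is rich in epididymis markers, and the second has the highest macrophage marker sum of all 25. The diet response of *Ftl1* was larger in eWAT than in iWAT by 0.63 on the log2 scale (edgeR interaction, adjusted p = 0.0791), and that of *Hfe* smaller by 1.09 (-1.09, adjusted p = 0.0754).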

How the results depend on the processing

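No called value of the 10 genes changed sign in any of the 2610 alternative values (95 lost a call, 30 gained one), while 99 changed sign between values called in neither fit. The number of all genes called changed between fits too. For genotype in iWAT it went from 0 to 91 of 12215 with 1 CPM in every library, to 1072 of 14801 by DESeq2's Wald test and to 2157 of 14429 within series 1. For diet in iWAT it went from 7415 to 5750 of 14801 with the series as a term. The number of the 10 genes called moved by over 1.5 times as follows, and the cause was not tested. Diet in eWAT (6) gave 1 within series 2. Diet in iWAT (5) gave 2 within series 2 and 2 with the series as a term. Genotype in iWAT (0) gave 1 with 1 CPM in every library, 3 by DESeq2's Wald test, 2 within series 1 and 1 without the iWAT knockouts labelled 17 and 18 weeks. Depot on ND (5) gave 3 at an adjusted p under 0.05, 2 without the filter and 2 without the 3 libraries rich in epididymis or muscle markers. Depot in HFD-fed knockouts (1) gave 0 within series 1 and 0 without the iWAT knockouts labelled 17 and 18 weeks. Depot by diet (2) gave 0 at 0.05, 0 without the filter and 1 without the 3 libraries. Without the filter, fits tested 34256 genes in eWAT (in place of 14936), 31603 in iWAT (14801) and 36252 over both depots (15034), and *Ireb2* was not called between depots in WT HFD mice (adjusted p = 0.147).

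Leaving out each library in turn gave 4 to 7 for diet in eWAT, 2 to 3 for genotype in eWAT, 4 to 7 for diet in iWAT, 0 to 2 for genotype in iWAT, 2 to 6 for depot on ND, 3 to 4 for depot on HFD in WT, 0 to 1 for depot on HFD in knockouts, 0 to 2 for depot by diet and 0 to 0 for depot by genotype.

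Replicate numbers were not taken to pair the libraries, since in no comparison did every same-numbered pair correlate above 0.1 (-0.20 to 0.28 by diet and genotype in eWAT, -0.06 to 0.35 in iWAT, -0.14 to 0.62 between depots). Between depots, each number on ND, and numbers 1, 4 and 5 in WT HFD, correlated best with its own, a hint from the data only. With the replicate block, depot on ND gave 3 (*Fth1*, *Ftl1* and *Hfe*), diet in eWAT 5 (*Hfe* not called, adjusted p = 0.156), diet in iWAT 6 (*Ireb2* called, 0.0708), and the other comparisons their main counts. In 40 ratios of group means, FPKM gave log2 values 0.017 to 0.147 lower than CPM, and 2 moved by over 1 SD, *Fth1* (0.13) and *Ireb2* (-0.39) by diet in iWAT.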
